A study of Mus musculus with 9 samples.

Results

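A pair of Hoxa13 binding maps of the wild-type ICR mouse limb was set side by side, 1 from the autopod, the region of the future hand or foot, at embryonic day 11.0 (E11.0), and 1 from whole limb buds at E11.5. Both come from chromatin immunoprecipitation and sequencing (ChIP-seq) with a home-made Hoxa13 antibody. The E11.0 list held 50890 peaks and the E11.5 list 143460, together 194350 of the 243649 peaks in the 5 lists of the series. An E11.0 peak was called kept when it shared at least 1 bp with an E11.5 peak and lost otherwise, and an E11.5 peak without an E11.0 peak was called gained. These words describe the lists and not events at a site.

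Chromatin for the E11.0 library was pooled from 11 pairs of autopods, and that for E11.5 came from the limb buds of a litter. Both libraries were made with the same commercial kit. Stage and dissected tissue differ together, with 1 library on each side, so their parts cannot be told apart and no test of either was possible. Intervals below are exact 95% Clopper-Pearson intervals over peaks, which cover counting error only, and neither list gives a read depth or a peak height. The other libraries used here as readouts are Hoxa13 in E12.5 limb buds, prepared by an earlier procedure, and Hoxa11 in E11.5 limb buds in 2 replicates, all from wild-type ICR embryos.

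Hoxa13 is a homeodomain transcription factor of the distal limb, needed for the digits and the wrist and ankle, and its gene is the most 5′ of the HoxA cluster. It acts together with Hoxd13, a related factor encoded in the HoxD cluster, and both are known to bind enhancers around the Hox clusters and other limb genes. Hoxa11 is expressed more proximally, where the forearm and lower leg form. A whole limb bud holds proximal as well as distal tissue, whereas the autopod is distal alone.

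Most E11.0 sites recurred at E11.5, while most E11.5 sites had no E11.0 counterpart. Of 50890 E11.0 peaks, 29588 were kept (58.1%, interval 57.7 to 58.6) and 21302 were lost. Of 143460 E11.5 peaks, 29479 met an E11.0 peak (20.5%, 20.3 to 20.8) and 113981 were gained. Counted in base pairs, the lists shared 7.54 Mb, which was 54.1% of the sequence under E11.0 peaks, 16.7% of that under E11.5 peaks and 14.6% of their union of 51.5 Mb. Against only the widest 50890 E11.5 peaks, a setting that changes list length and width together, 36.7% of E11.0 peaks were kept, and 36.3% of those E11.5 peaks met E11.0.

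Kept sites lay close in position, which the rule largely fixes, since peaks that overlap cannot have distant centres. Among 29003 pairs in which each peak met just the other, the median distance between centres was 41 bp (quartiles 19 and 74), and 85.7% of pairs had centres at most 100 bp apart. The E11.0 peak lay wholly inside the E11.5 peak in 14010 pairs (48.3%), the reverse held in 2271 (7.83%), and in the other 12722 each reached past the other. The E11.5 peak was the wider one in 78.6% of pairs, with a median ratio of widths of 1.303 (quartiles 1.04 and 1.65). Few peaks were split: 132 E11.0 peaks met 2 E11.5 peaks and 4 met 3, and 204 E11.5 peaks met 2 E11.0 peaks, 15 met 3 and 5 met 4.

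The split into kept and lost did not turn on small misses. Only 19 overlapping pairs shared 5 bp or less, and only 11 lost peaks had an E11.5 peak within 5 bp. Just inside the rule stood an E11.0 peak on chromosome 1 at 143815391 to 143815744, which shared 1 bp with an E11.5 peak that ended there, and one on chromosome 13 at 39525324 to 39525671, which shared 4 bp. Just outside it stood an E11.0 peak on chromosome 14 at 7342924 to 7343322, 5 bp short of an E11.5 peak, and one on Y_random at 17686648 to 17686992, 2 bp short. Lost peaks lay at a median of 6.12 kb from the nearest E11.5 peak (quartiles 2.62 and 13.0), with 1.00% within 100 bp and 66.7% within 10 kb. Gained peaks lay farther from the sparser E11.0 list, at a median of 16.95 kb (6.66 and 38.7), and 34.7% were within 10 kb.

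**Figure D1:**
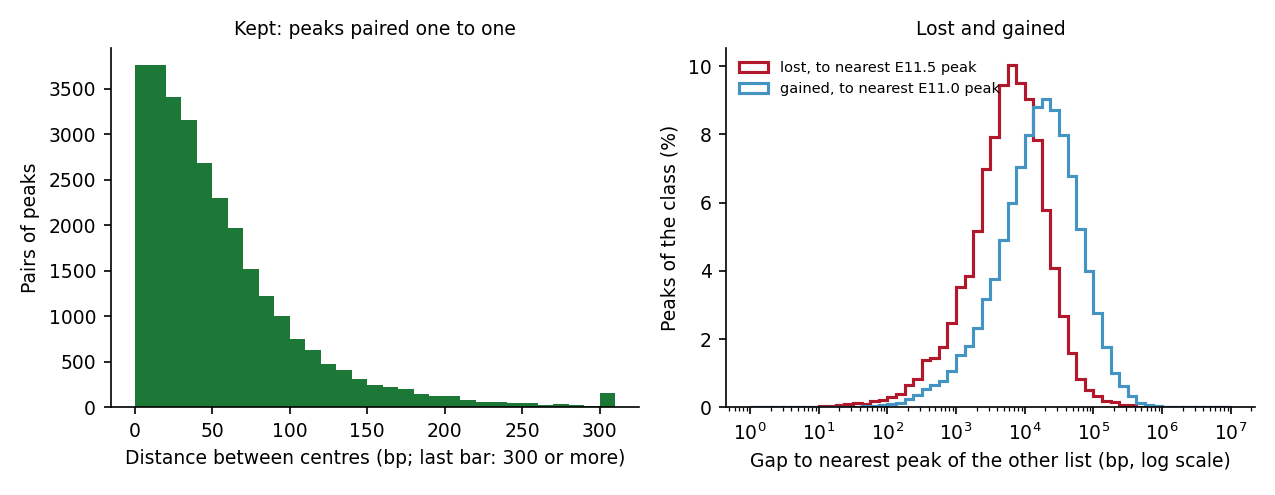
Left, the number of one-to-one pairs (y axis) by the distance in bp between the centres of the E11.0 and E11.5 peak (x axis). Right, the percentage of lost (red) and gained (blue) peaks by the gap in bp to the nearest peak of the other list, on a log axis. Centres of pairs, which overlap by the rule, concentrate below 100 bp. Lost and gained peaks, which by the rule overlap no peak of the other list, have median gaps between edges of 6.12 and 16.95 kb. The rule itself thus sets the panels apart.

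Lost peaks were narrow and kept peaks wide, in both lists. The median width was 263 bp for kept and 226 bp for lost E11.0 peaks, and 350 bp for E11.5 peaks met by E11.0 and 274 bp for gained ones. The shortest peak was 187 bp at E11.0 and 203 bp at E11.5, and 6823 E11.0 peaks (13.4%) had exactly that shortest width. It made up 18.0% of lost and 10.1% of kept peaks. When each list was cut into 5 classes of equal size by width, the share kept at E11.0 was 44.7% in the narrowest class (187 to 196 bp), then 49.8%, 56.0% and 64.6%, and 75.6% in the widest (326 bp and above). At E11.5 it went from 8.68% (203 to 230 bp) to 44.2% (368 bp and above). A wider interval is met more easily, and the part of this in the order was not tested.

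Chromosome X stood apart from every autosome. Of 3259 E11.0 peaks on chromosome X, 1144 were kept (35.1%, 33.5 to 36.8), against 60.2% of 46607 on chromosomes 1 to 19. Among autosomes the share ran from 51.2% on chromosome 7 (49.2 to 53.2) and 57.1% on chromosome 4 to 64.4% on chromosome 19 and 65.0% on chromosome 16 (63.0 to 67.1), with a median of 61.1%. Chromosome Y had 12 of 52 kept (23.1%), and the 11 random and unplaced sequences together had 359 of 971 (37.0%). The X value lay below the autosomal one within each width class. Outside the dense windows defined below, X had 22.9% in the narrowest and 54.4% in the widest, against 47.0% and 79.5% on autosomes. With its dense windows included, X had 20.6% and 52.6%.

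Numbers of peaks showed the same chromosomes. There were 2.97 E11.5 peaks for each E11.0 peak on chromosomes 1 to 19 as a whole, from 2.32 on chromosome 7 to 3.46 on chromosome 11. On chromosome X the ratio was 1.39 (4530 against 3259), on chromosome Y 0.769 and on random and unplaced sequence 0.608. Chromosome X therefore carried 6.40% of the E11.0 list and 3.16% of the E11.5 list, and 9.93% of lost but 2.98% of gained peaks. Against the widest E11.5 peaks at equal list length, 14.97% of X peaks and 38.7% of autosomal peaks were kept.

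**Figure D2:**
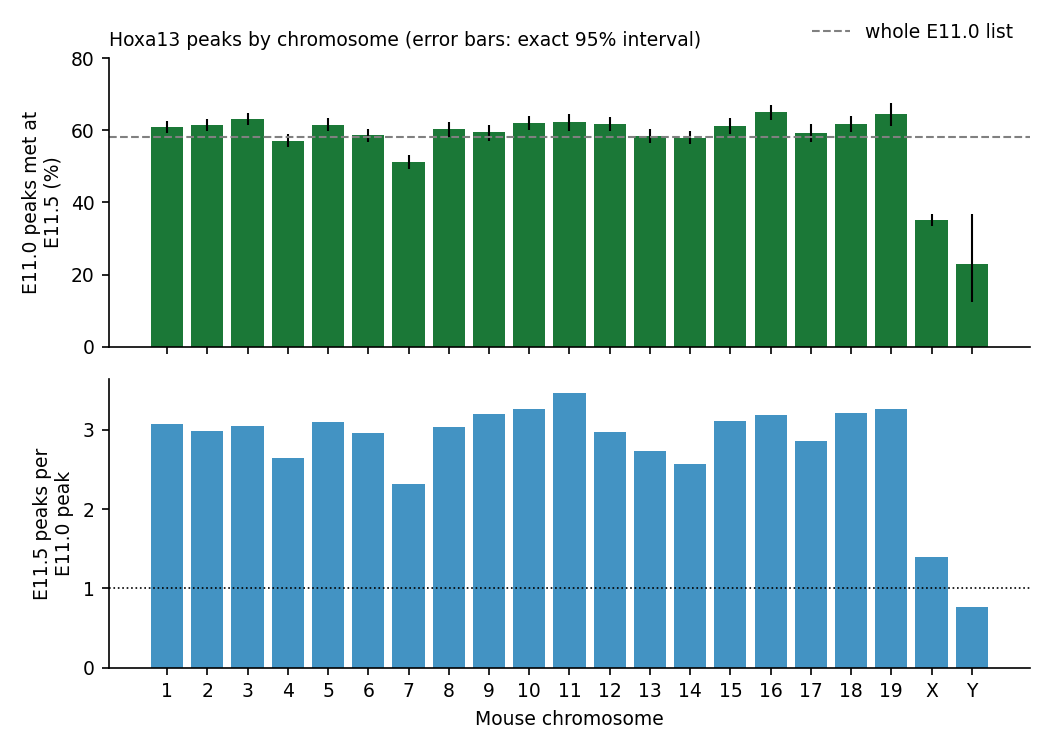
Top, the percentage of E11.0 Hoxa13 peaks met by an E11.5 peak on each chromosome, with exact 95% intervals and the value of the whole list (58.1%) as a dashed line. Bottom, the number of E11.5 peaks per E11.0 peak, with equality dotted. Chromosomes X (35.1% and 1.39) and Y (23.1% and 0.769) lie below all autosomes in both panels, and chromosome 7 is the lowest autosome in both.

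A small number of windows held many E11.0 peaks, kept and lost, and few gained ones. Cut into 2651 windows of 1 Mb, the autosomes, X and Y had a median of 16 peaks a window at E11.0 and 51 at E11.5. The 2 counts were correlated across windows (Spearman's rho 0.757), which is a description, since all windows share both libraries. A window was called dense above an upper bound for outlying counts, set 3 interquartile ranges over the upper quartile, which came to 77 at E11.0 and 189 at E11.5. By this rule 20 windows were dense at E11.0, 9 of them on chromosome X, and none at E11.5. All were thus picked by a high E11.0 count. That choice by itself favours E11.0 over E11.5 peaks in the counts and shares of these windows. The 20 windows held 2667 E11.0 peaks, of which 40.8% were kept, and 1521 E11.5 peaks, of which 70.5% met E11.0. They thus held 7.42% of lost, 3.67% of kept E11.0 and 0.394% of gained peaks, and most lost peaks, 17747 of 21302, lay on chromosomes 1 to 19 outside them.

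E11.0 peaks outnumbered E11.5 peaks in 86 windows, all 20 dense ones among them, with 4873 against 3100 peaks in all. For the dense windows, the choice by E11.0 count favours this. The richest in lost peaks was on chromosome 13 from 66000001 to 67000000, with 177 lost, 95 kept and 20 gained. Next came 4 windows on chromosome X, starting at 31000001, 3000001, 4000001 and 30000001, with 137, 124, 121 and 107 lost peaks and 13 to 18 gained ones. The 5 windows richest in kept peaks were all dense as well. First was the same chromosome 13 window with 95, then its neighbour from 65000001 with 86. Those on chromosome 4 from 146000001 and 145000001 had 76 and 69, and that on chromosome X from 120000001 had 64. These 5 windows kept 34.9% to 54.7% of their E11.0 peaks, below the 58.1% of the list. Without the dense windows, 59.1% of the E11.0 list and 35.0% of E11.0 peaks on chromosome X were kept, so the X value was about the same with and without them.

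Gained sites were richest elsewhere. The 5 richest windows were on chromosomes 16 and 5, starting at 74000001, 77000001 and 63000001 on chromosome 16 and at 82000001 and 12000001 on chromosome 5, with 136, 128, 122, 127 and 125 gained peaks. None was dense. The second of them kept all of its 28 E11.0 peaks, and the share kept in the others was 64.3% to 89.4%.

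**Figure D3:**
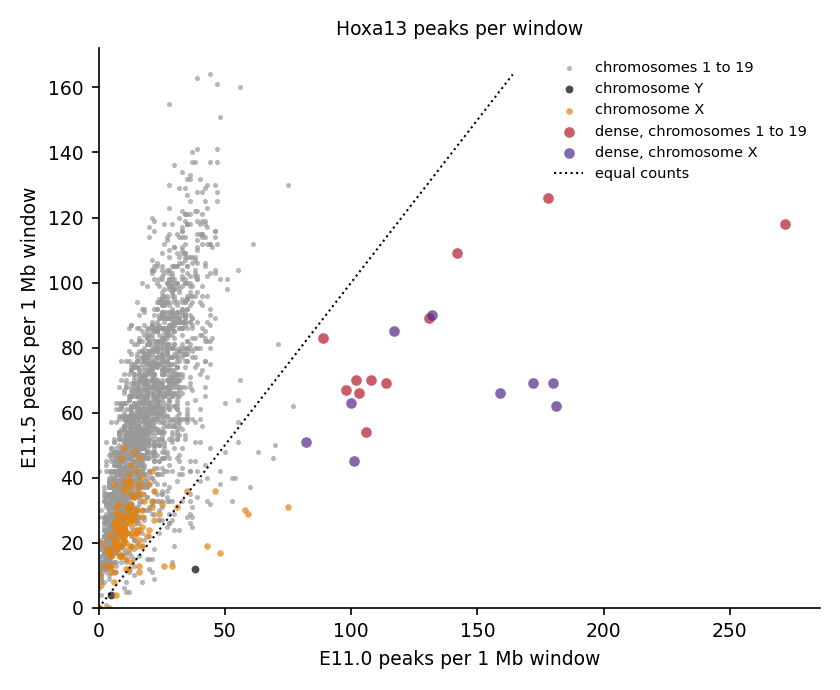
Each point is 1 window of 1 Mb, with its number of E11.0 peaks on the x axis and of E11.5 peaks on the y axis. The 20 dense windows (large points, red on autosomes and purple on chromosome X) lie below the line of equal counts, reaching 272 E11.0 peaks, while autosomal windows reach 164 E11.5 peaks. Dense windows were picked by their E11.0 count, which favours that side of the line.

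The widest peaks of each class were long intervals. The 5 widest lost peaks lay together on chromosome 9 between 2999976 and 3038358, were 3208 to 11366 bp wide and had no E11.5 peak nearer than 100897 bp. Each also met, by at least 1 bp, E12.5 Hoxa13 and Hoxa11 replicate 2, and none met Hoxa11 replicate 1. The widest kept E11.0 peak, 4032 bp on chromosome 2 at 3881689 to 3885720, met a single E11.5 peak of 4079 bp at nearly the same place, as well as E12.5 and both Hoxa11 replicates. Among the others, a peak of 2430 bp on chromosome 12 from 20248725 to 20251154 also met both Hoxa11 replicates, that on chromosome 5 at 14958927 to 14961293 met Hoxa11 replicate 2, and those on chromosome 9 at 114082056 to 114084737 and chromosome X at 123302912 to 123305539 met neither. All 5 met E12.5. The widest kept peaks of the E11.5 list were the partners of those on chromosomes 2 and 9, a pair on chromosome X at 120831611 to 120835360 and 121052476 to 121056013, each meeting 4 E11.0 peaks, and one on chromosome 12 at 8636928 to 8639994. Of the 5 widest gained peaks, the first was 4980 bp on chromosome 1 at 7379362 to 7384341, 3706 bp from the nearest E11.0 peak. It met E12.5 and both Hoxa11 replicates, as did those on chromosome 14 at 52008458 to 52010729, chromosome 12 at 8624905 to 8626792 and chromosome 4 at 97889828 to 97891445, while that on chromosome 16 at 54636908 to 54638533 met E12.5 alone. The inputs were not analysed here, nor were repeats masked, so width is not read as strength of binding.

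Sites kept from E11.0 to E11.5 were met at E12.5 more often than lost or gained sites. Of kept E11.0 peaks 13646 met E12.5 Hoxa13 (46.1%, 45.6 to 46.7), of lost peaks 1991 (9.35%, 8.96 to 9.75) and of gained peaks 17319 (15.2%, 14.99 to 15.40). The shares of the whole lists were 30.7% at E11.0 and 21.7% at E11.5. The order of kept and lost held in each width class of the E11.0 list, from 30.6% and 6.07% in the narrowest to 62.9% and 17.7% in the widest. At E11.5 the kept peaks likewise exceeded the gained ones in each class, from 20% and 6.07% to 64.3% and 34.0%. When 50% of both peaks had to overlap, at both steps, the shares were 30.4% of kept, 9.20% of lost and 6.53% of gained peaks. Under that rule the share of gained peaks was below that of lost ones.

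Lost peaks that were met again at E12.5 lay more often in dense windows, a difference that kept and gained peaks showed too. Of the 1991, 291 (14.6%) were in dense windows, 255 (12.8%) on chromosome X and 112 (5.63%) on random, unplaced or mitochondrial sequence. Peaks in dense windows of chromosome X count in both of the first values. The other 19311 lost peaks had 6.67%, 9.63% and 2.59% there. On chromosome X outside dense windows, 99 of 1322 lost peaks met E12.5 (7.49%, 6.13 to 9.04). Most of the 1991 were nevertheless outside these places: 1475 lay on chromosomes 1 to 19 outside dense windows, where 8.31% of lost peaks met E12.5.

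Few Hoxa13 peaks of any class met the more proximal factor Hoxa11, whose lists were short, with 2953 peaks in replicate 1 and 1647 in replicate 2. The length of those lists limits every share that follows. In the whole lists 1.79% of E11.0 and 1.67% of E11.5 peaks met a Hoxa11 peak of either replicate. The share was 829 of 29588 kept E11.0 peaks (2.80%, 2.617 to 2.996), 81 of 21302 lost peaks (0.380%, 0.302 to 0.472) and 1574 of 113981 gained peaks (1.38%, 1.31 to 1.45). The single replicates gave 2.376% and 1.497% of kept, 0.150% and 0.338% of lost and 1.22% and 0.627% of gained peaks, for replicate 1 and 2 in turn. Replicate 1 thus had the larger share in kept and gained peaks and the smaller one in lost peaks. By its title, replicate 1 shares its input library with Hoxa13 at E11.5, and its part in this was not tested.

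Within classes of width, the kept E11.5 sites had no larger share with Hoxa11 than the gained ones outside the widest class. In the widest class of the E11.5 list, 5.97% of peaks met by E11.0 (5.56 to 6.40) and 5.95% of gained peaks (5.58 to 6.32) met Hoxa11. In the next class it was 0.603% (0.435 to 0.814) and 1.23% (1.087 to 1.384), so there gained peaks had the larger share. The higher value of kept peaks over the whole E11.5 list, 2.81% against 1.38% of gained ones, thus went with their greater width. In the E11.0 list the kept peaks had the larger share in each class, 1.65% against 0.0533% in the narrowest and 5.12% against 1.98% in the widest. Of the 81 lost peaks with Hoxa11, 34 lay in dense windows, and outside them the share of lost peaks was 0.238%.

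**Figure D4:**
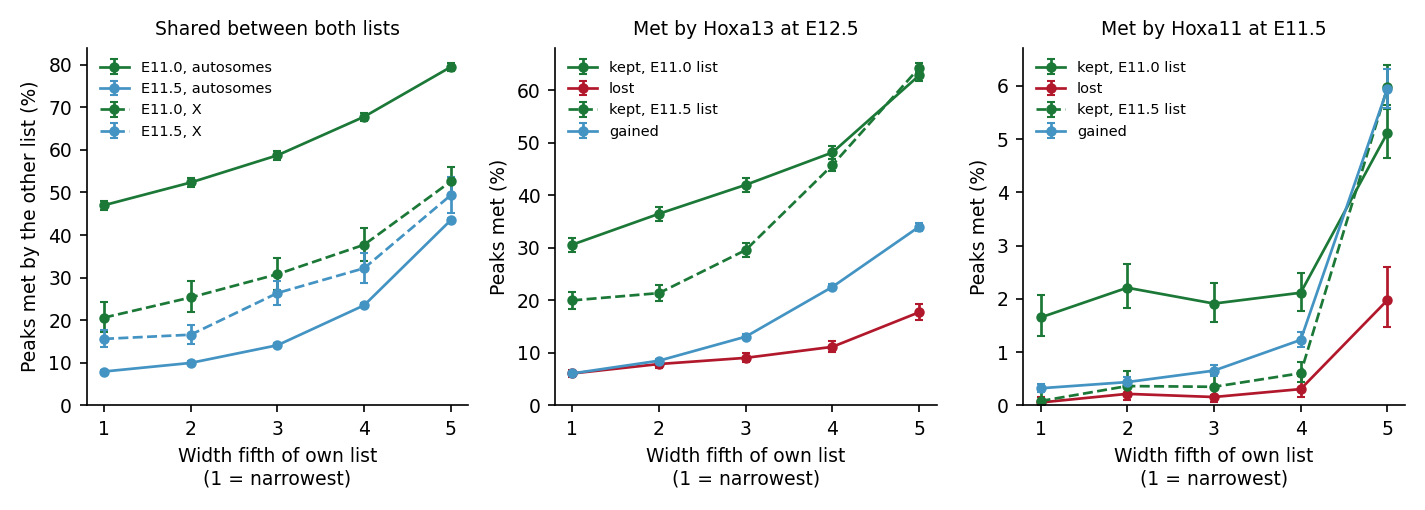
Percentage of peaks met (y axis) by width class of their own list, 5 classes of equal size (x axis, 1 is the narrowest), with exact 95% intervals. Left, peaks met by the other list, on autosomes outside dense windows (solid) and on all of chromosome X, its dense windows included (dashed). Middle and right, peaks of each class met by E12.5 Hoxa13 and by E11.5 Hoxa11. In the widest class, E12.5 met 62.9% of kept and 17.7% of lost E11.0 peaks, and Hoxa11 met 5.97% of kept and 5.95% of gained E11.5 peaks.

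Windows of 1 Mb around 26 limb loci showed a larger share of kept sites than the list. The windows were placed from background knowledge of the mouse build mm9, so a peak in a window is not assigned to the gene that names it, nor to an exon or intron. They held 466 E11.0 peaks, of which 355 were kept (76.2%, 72.05 to 79.98, against 58.1% in the whole list), 111 lost peaks and 1492 gained ones. In 22 of 26 windows the share was at or above that of the list, and none of the windows was dense. The range was 50% to 100%, with a median of 74.04%, against a median of 62.3% over the 2396 autosomal windows outside dense ones that held an E11.0 peak. That median is itself above the 58.1% of the list, so most such windows lie above the list share as well. How many of them do was not counted. The loci were chosen with earlier results of these data known.

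In some windows the share moved by over 1.5 times with the rule. With 50% overlap of both peaks, 13 of 30 peaks were kept at Gli3, 13 of 31 at Shox2, 9 of 18 at Aldh1a2, 2 of 7 at Bmp7 and 3 of 5 at Sox9. Against the widest E11.5 peaks, 2 of 10 were kept at Shh, 3 of 12 at Tbx2 and Tbx4 and 3 of 5 at Sox9.

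The number of E11.5 peaks in a window moved with the share kept. Over autosomal windows outside dense ones, it was 48.8% in windows with up to 24 E11.5 peaks, 54.9% with 25 to 49, 60.1% with 50 to 74, 63.6% with 75 to 99 and 69.2% with 100 or more. The limb windows in these classes kept 7 of 10, 83.1% of 71, 63.1% of 65, 72.1% of 147 and 82.1% of 173 E11.0 peaks. The values of the limb windows were above those of all windows in each class. Their intervals held the value of all windows with up to 24 (34.8 to 93.3) and with 50 to 74 E11.5 peaks (50.2 to 74.7), and the lower end was just above it with 75 to 99 (64.1 to 79.2). These intervals cover counting error over peaks pooled from few windows, so they are no test of a difference. The limb windows are also among all windows, and the classes were set after the values were seen.

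The HoxD locus on chromosome 2 was covered by 3 windows. They are cut at whole Mb, so the cluster window is not limited to the HoxD genes. Which of its peaks lie among the genes and which beside them was not determined. The HoxD genes form digits and forearm under the control of enhancers on both sides, those on the centromeric side being known for the digits and those on the telomeric side for the forearm. The window with the cluster, from 74000001 to 75000000, held 34 E11.0 peaks, of which 30 were kept (88.2%, 72.5 to 96.7), and 99 gained ones. The centromeric flank, from 73000001, had 18 of 25 kept and 77 gained, and the telomeric flank, from 75000001, 19 of 26 kept and 99 gained. When 50% of both peaks had to overlap, 18 of 34 were kept in the cluster window (52.9%) and 9 of 25 on the centromeric flank (36%), against 47.3% of the whole list. In the cluster window 15 of the 30 kept peaks met E12.5, where the share of kept E11.0 peaks in the whole list was 46.1%. In the centromeric flank window 12 of 18 did and in the telomeric flank window 7 of 19. These are few peaks, and the order of the windows was not tested.

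A run of 11 consecutive E11.0 peaks, from 73815535 to 74139732, was kept and met at E12.5 without a break. These peaks were 228 to 386 bp wide and crossed from the centromeric flank window into the cluster window over 324 kb. Their place relative to the HoxD genes was not determined. Of 9515 such runs in the genome, 4 were as long or longer, this one included, and the median run was 1 peak. The longest had 16 peaks on 4_random and the next 13 on chromosome X. The HoxD run was picked after its values were seen, so its rank is a description only. Between its ends the E11.5 list held 41 peaks, 30 of them gained, of which 3 met E12.5.

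Within the cluster window, E11.0 peaks were set closely between 74373482 and 74398973, where 7 peaks stood and the first alone was lost. That lost peak, at 74373482 to 74373724, was 137 bp from an E11.5 peak. The widest of the 7, 629 bp at 74394521 to 74395149, was kept but not met at E12.5. The other 3 lost peaks of the window, at 74723121 to 74723307, 74760479 to 74760717 and 74810923 to 74811109, were 187 to 239 bp wide, and none of the 4 met E12.5 or Hoxa11. Hoxa11 met none of the 34 E11.0 peaks and 8 of the 99 gained peaks in this window. The widest gained peaks were 778 bp at 74490818 to 74491595 and 729 bp at 74976217 to 74976945, both met at E12.5. The first met Hoxa11 in replicate 1 and the second in both replicates. The next widest, 658 bp at 74708797 to 74709454, met neither E12.5 nor Hoxa11.

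On the flanks, the widest E11.0 peak was 960 bp at 73205513 to 73206472, on the centromeric side, and it was kept and met at E12.5. Each flank had 7 lost peaks, 187 to 275 bp wide, and 1 of them on each side met E12.5. The widest gained peaks on the centromeric side formed a pair at 73789412 to 73790314 and 73790426 to 73791259. The first met E12.5 and Hoxa11 in replicate 1, and the second met Hoxa11 in both replicates but not E12.5. The next widest, 596 bp at 73239267 to 73239862, met neither E12.5 nor Hoxa11. On the telomeric side, the widest gained peak was 1018 bp at 75445590 to 75446607. Next came 945 bp at 75907310 to 75908254 and 706 bp at 75329797 to 75330502. All of these telomeric peaks met E12.5, and the last 2 met Hoxa11 in both replicates.

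The HoxA window on chromosome 6, from 52000001 to 53000000, kept all of its 20 E11.0 peaks. The exact interval of the share kept ran from 83.2% to 100%. With 50% overlap of both peaks 14 of the 20 were kept (70%), and against the widest E11.5 peaks 16 (80%), so the absence of lost peaks holds for the 1 bp rule alone. It holds Hoxa13 itself and the HoxA side on which digit enhancers are known. Of 1048 windows with at least 20 E11.0 peaks, a number taken from this window, 3 had no lost peak. Of 1984 windows with at least 10, there were 8. It also held 94 gained peaks.

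Of the 20 kept sites in the HoxA window, 12 met E12.5 and 8 met Hoxa11, against 2.80% of kept sites in the whole list with Hoxa11. Sites met at E12.5 and by both Hoxa11 replicates stood at 52151000 to 52151300, 52166666 to 52166933, 52176221 to 52176838 and 52551584 to 52551770. The first 3 were neighbours in the list, and the last, 187 bp wide at E11.0, lay inside an E11.5 peak that ran from 52551370 to 52552766. Among the others, those at 52207304 to 52207540 and 52417960 to 52418146 were met at E12.5 without Hoxa11. Sites without E12.5 included 52271409 to 52271599, with Hoxa11 in replicate 1, and 52345174 to 52345513, with Hoxa11 in replicate 2. The widest, 811 bp at 52924834 to 52925644, was met at E12.5 and not by Hoxa11, and its E11.5 partner ran from 52924473 to 52925770. A pair of peaks at 52780589 to 52780831 and 52781012 to 52781349 had separate E11.5 partners, the first met at E12.5 and the second by Hoxa11 in replicate 1. The widest gained peaks, 741 bp at 52194390 to 52195130, 733 bp at 52365530 to 52366262 and 666 bp at 52544157 to 52544822, were all met at E12.5.

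The HoxB window on chromosome 11, from 96000001, kept 8 of 8 (63.1 to 100) with 29 gained. The HoxC window on chromosome 15, from 102000001, kept 5 of 10 (18.7 to 81.3) with 47 gained, the widest of them 1412 bp at 102423917 to 102425328, met at E12.5 and by Hoxa11 in replicate 2.

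Shh, the signal of the posterior limb margin, lies on chromosome 5, and its limb enhancer lies far away inside Lmbr1. In the whole list 58.1% of E11.0 peaks were kept, and 46.1% of the kept ones met E12.5. The Shh window, from 28000001, kept 6 of 10 peaks (26.2 to 87.8), and 1 of the 6 met E12.5, at 28352777 to 28353104. Against the widest E11.5 peaks this window kept 2 of 10. The enhancer window, from 29000001, kept 10 of 14 (41.9 to 91.6), of which 7 met E12.5. Those 7 were at 29494969 to 29495441, at 29629187 to 29629509, and the last 5 peaks of the window from 29813587 to 29977669. Its lost peaks, at 29370348, 29506861, 29535292 and 29657198, were 210 to 342 bp wide and met neither E12.5 nor Hoxa11. In both windows, 1 gained peak each met E12.5, of 28 and 35, against 15.2% of gained peaks in the whole list.

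Grem1 encodes a Bmp antagonist and shares its limb enhancers with Fmn1. Their window on chromosome 2, from 113000001, kept 4 of 8 E11.0 peaks (15.7 to 84.3) and held 50 gained ones, 6.75 E11.5 peaks for each E11.0 peak. The kept peaks at 113058891 to 113059338 and 113469580 to 113470005 met E12.5, and those at 113006369 and 113960560 did not. One of the lost peaks, at 113941728 to 113941957, was only 24 bp from an E11.5 peak. The widest gained peak, 789 bp at 113633056 to 113633844, and one of 525 bp at 113080813 to 113081337 were met at E12.5. Between them in width, a gained peak of 547 bp at 113531701 to 113532247 met Hoxa11 in replicate 1 but not E12.5. Bmp2 and Bmp7, which encode signals of digit formation, had 13 of 19 and 4 of 7 kept, with 53 and 20 gained.

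The share of kept sites varied among transcription factor loci. Meis1 and Meis2 mark the proximal limb, and their windows kept 17 of 29 (58.6%, 38.9 to 76.5) and 21 of 22 (95.5%, 77.2 to 99.9). With 50% overlap of both peaks they kept 14 of 29 (48.3%, 29.4 to 67.5) and 14 of 22 (63.6%, 40.7 to 82.8). Shox2, a gene of the upper limb segment, had 22 of 31 kept, and Irx3 and Irx5, of early limb patterning, 16 of 17. For Sall1, a distal limb gene, 6 of 6 were kept with 41 gained, and for Gli3, the anterior antagonist of Shh, 20 of 30 with 61. Tbx2 and Tbx4 had 6 of 12 kept with 66 gained, and Tbx3 and Tbx5 3 of 3 with 16. Hoxa11 met 4 of the 16 kept sites in the Irx window, and at most 2 in each of the other windows except HoxA. With so few peaks, the intervals of most of these windows overlap, and proximal and distal loci were not compared by a test.

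The remaining loci all lay above the list share of 58.1%. Epha7 and Epha4, receptors known to act in cell sorting in the limb, kept 30 of 40 and 13 of 16, with 88 and 69 gained. Sox9, the master gene of cartilage, kept 5 of 5 with 42 gained, the largest ratio among the 26 windows at 9.40 E11.5 peaks per E11.0 peak, and Gdf5, a joint gene, kept 8 of 11 with 30. Cyp26b1, which breaks down retinoic acid in the distal limb, and Aldh1a2, which makes it, kept 13 of 16 and 15 of 18, with 57 and 62 gained.

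Over all 26 windows, kept peaks again had the largest share with the other readouts and lost peaks the smallest. E12.5 met 167 of 355 kept (47.0%), 6 of 111 lost and 233 of 1492 gained peaks (15.6%), against 46.1%, 9.35% and 15.2% of the whole lists. Hoxa11 met 31 kept peaks (8.73%), 62 gained peaks (4.16%) and none of the 111 lost peaks, where the limit of 3 counts allows a share of up to 2.70%. The corresponding shares of the whole lists were 2.80%, 1.38% and 0.380%.

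**Figure D5:**
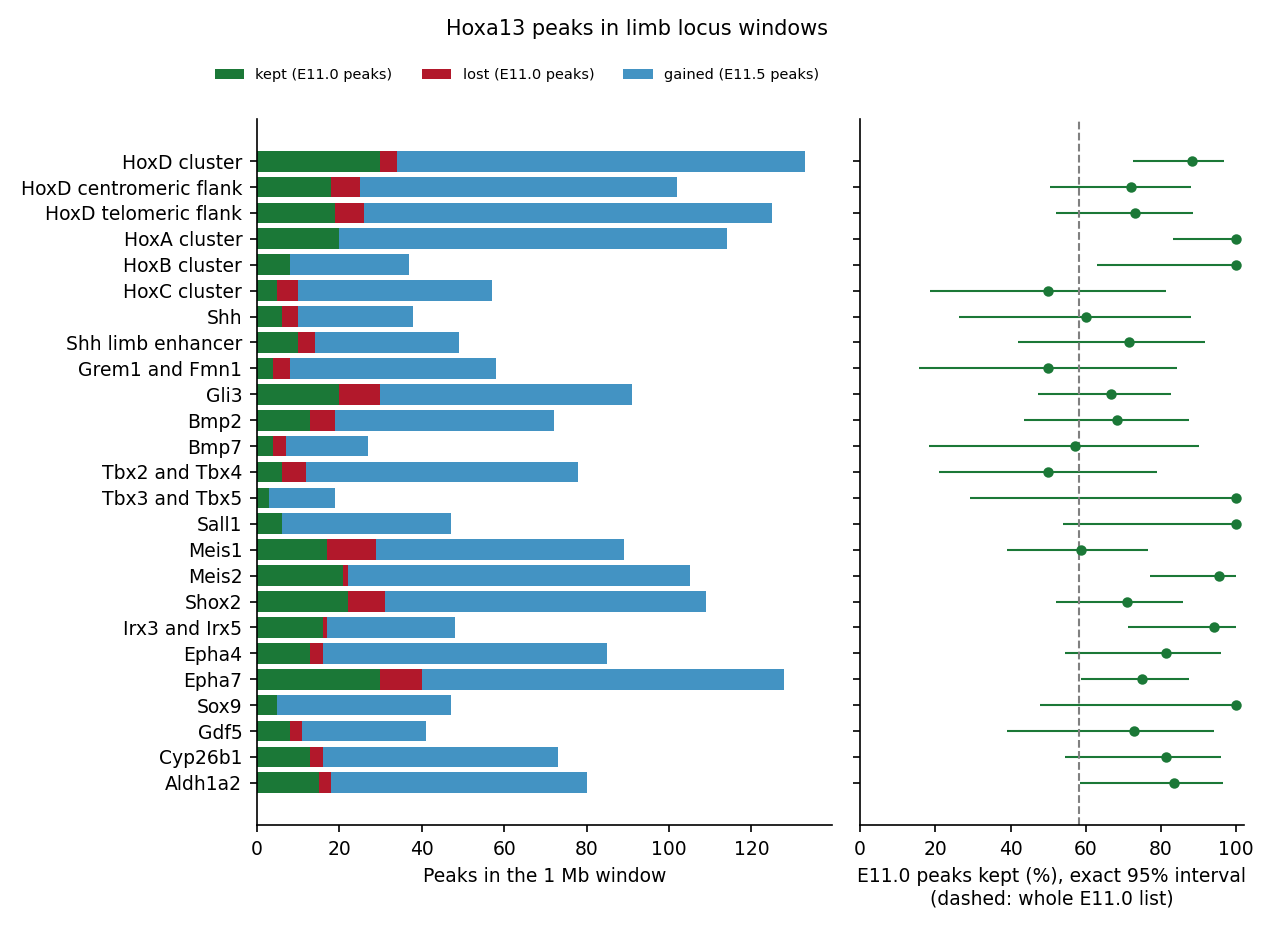
Left, numbers of kept, lost and gained Hoxa13 peaks in windows of 1 Mb named by limb loci. Right, the percentage of E11.0 peaks kept with its exact 95% interval, and the value of the whole E11.0 list (58.1%) as a dashed line. The HoxA window has 20 kept and 0 lost peaks, and the HoxD cluster window 30 and 4.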

How the data were processed

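The tools named per the submitters' processing notes are MACS2 2.1.0, Bowtie2 2.2.2 and CASAVA 1.4, with build mm9. Thresholds, and any use of the 4 input libraries, are not given in the sources used here. The deposited peak lists hold the start and end of each peak in bp, with no other unit used. Read depth is unknown. Hoxa11 replicate 2 has further columns, which were not used.

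Positions are printed 1-based in mm9. Overlaps, distances and windows of 1 Mb were computed in Python 3.11.15 with numpy 2.4.6, pandas 2.3.3 and scipy 1.17.1, and the overlap functions were tested on simulated data. Members, loci and lists were chosen with earlier results of these data known. The text names the 5 widest peaks and 5 richest windows of each class, the limb windows (1 of the 26 is counted in the totals and not reported here), and, in the HoxD, HoxA, Shh and Grem1 windows, the E11.0 peaks that carry the description and the widest gained peaks. Window classes by E11.5 count and runs of kept peaks were added after the values were seen. In the RefSeq table of GRCm38, 36 of 36 locus symbols found were on the listed chromosome. No mm9 sequence or annotation was used here.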

Additional observations from a re-analysis of the deposited data

How the results depend on the processing

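Most shares moved with the overlap rule and list length, and all are compared as values, with no test. E11.0 peaks kept were 47.3% with 50% reciprocal overlap, 49.03% with centres at most 100 bp apart, 59.4% for peaks of at least 300 bp, 36.7% against the widest E11.5 peaks, 60.2% on autosomes and 59.1% without dense windows. E11.5 peaks met by E11.0 were 16.8%, 17.4%, 13.4%, 36.3%, 20.2% and 20.01% in that order. Allowing peaks up to 100 bp apart, or leaving out random and unplaced sequence, left both within their intervals. Of peaks meeting E12.5, 50% reciprocal overlap gave 30.4% of kept and 6.53% of gained, middle widths (25th to 75th percentile) 42.5% and 13.9%, and lost peaks without dense windows 8.62%. Peaks meeting Hoxa11 sites of both replicates were 1.13% of kept, 0.108% of lost and 0.472% of gained, those of middle width 2.03%, 0.206% and 0.719%, and without dense windows 2.55% of kept and 0.238% of lost. Leaving out either Hoxa11 replicate gave 1.497% to 2.376% of kept, 0.150% to 0.338% of lost and 0.627% to 1.22% of gained. With 50% reciprocal overlap and with the widest E11.5 peaks, the share kept was 30.3% and 14.97% on chromosome X, 48.9% and 38.7% on autosomes, and 57.3% and 58.6% in the limb windows. Under both settings the share kept cannot rise above that with 1 bp, and it was lower on all 19 autosomes. It was within the interval in 18 and 21 of 26 limb windows, whose intervals are wide because they hold few peaks. No paired analysis was possible because each Hoxa13 stage has 1 library. Depth is unknown and limits all lists.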
